A study of Rattus norvegicus with 16 samples.

Results

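Adipocyte genes were followed through 4 tissues of a rat osteotomy model. They are 10 genes typical of fat cells (Adipoq, Plin1, Plin4, Cidec, Fabp4, Lep, Lpl, Pparg, Cfd and Lipe), taken from the count table by symbol. Of these, 9 had a row among the 14476 genes of the deposited count table, and all 9 passed the filter on low counts that left 12857 genes to test. Plin4 was not analysed here. Each of 4 Sprague-Dawley rats had a plated osteotomy in both limbs. A polymethyl methacrylate (PMMA) cement spacer was placed on one side and the gap on the other side was left empty, with 4 weeks of healing. The groups were the induced membrane that forms around the spacer (IM), the tissue of the empty gap, which the labels call pre-fibrous non-union (PFNU), bone next to the cement (PMMA bone) and bone next to the unfilled gap (BNED). Every rat gave 1 library to each group, so each group held 4 libraries, all 4 groups carried a plate and an osteotomy, and no uninjured bone is among them. Tissue was taken whole, so each value is an average over all the cells in the piece.

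Adipocytes store triglyceride in a large droplet coated by perilipin, release it through hormone-sensitive lipase and other lipases, and secrete hormones such as adiponectin and leptin. The nuclear receptor encoded by Pparg drives their formation from stromal progenitors. Bone marrow holds adipocytes of its own, which arise from leptin receptor-bearing stromal cells in mice, and fat also lies between and around muscles near a bone. Adiponectin, perilipin 1, the droplet fusion protein Cidec and leptin are largely made by adipocytes. Fabp4, Lpl, Pparg, Cfd and Lipe are also used by other cells, among them endothelium, macrophages and muscle.

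Libraries held 40472228 to 76815879 counts, and levels are in CPM, counts per 1000000 counts of library size after TMM scaling. The osteoblast markers Bglap and Sp7 were used to check the tissue labels. Bglap ranged over 10.1 to 864 CPM in IM, 67.6 to 472 CPM in PFNU, 2030 to 2640 CPM in PMMA bone and 914 to 2690 CPM in BNED. By Bglap, both bone groups lay above both defect tissues. Sp7 ranged over 0.806 to 33.8 CPM in IM, 2.9 to 19.6 CPM in PFNU, 38.4 to 79.3 CPM in PMMA bone and 22.1 to 45.2 CPM in BNED. By Sp7, IM overlapped BNED. The summed share of 10 osteoblast markers overlapped as well, at 0.547 to 4.39% in IM, 0.907 to 3.19% in PFNU and 2.53 to 6.39% in BNED. Other cell types differed widely between libraries. The 20 skeletal muscle markers in the table took 2.55 to 23.2% of the counts in IM, 7.23 to 17.7% in PFNU, 0.22 to 1.38% in PMMA bone and 0.441 to 4.98% in BNED. The 12 erythroid markers, of red blood cell precursors, took 0.0428 to 0.166% in IM, 0.106 to 0.494% in PFNU, 0.535 to 8.41% in PMMA bone and 4.47 to 7.8% in BNED. No muscle or erythroid marker was at 0 over a whole group. The PMMA bone of rat 1, at 8.41% erythroid counts, lay above every BNED library, whereas the PMMA bone of rats 2 to 4 lay at 0.535 to 1.44%. Fewer cells of a type and less RNA per cell cannot be told apart in such samples.

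The promoters of the 4 members most restricted to adipocytes are shown because these genes varied together across the libraries, as described further on. Each sequence is the RefSeq window of build GRCr8 from 250 bases before to 50 bases after the transcription start, on the strand of the gene, and 7 of the 10 members had a window in the table. Capitals mark every match, on either strand, to the TATA letters (TATAA), the CCAAT box (CCAAT, printed ATTGG where it lies on the opposite strand), an 8-base palindrome bound by C/EBP factors (TTGCGCAA), the DR1 element bound by PPAR and RXR (AGGTCANAGGTCA) and that element's single repeat (AGGTCA). The windows lie at chr11:91240120-91240419 (minus strand) for Adipoq, chr1:143086099-143086398 (minus strand) for Plin1, chr4:148137066-148137365 (minus strand) for Cidec and chr4:58626288-58626587 (plus strand) for Lep.
Adipoq: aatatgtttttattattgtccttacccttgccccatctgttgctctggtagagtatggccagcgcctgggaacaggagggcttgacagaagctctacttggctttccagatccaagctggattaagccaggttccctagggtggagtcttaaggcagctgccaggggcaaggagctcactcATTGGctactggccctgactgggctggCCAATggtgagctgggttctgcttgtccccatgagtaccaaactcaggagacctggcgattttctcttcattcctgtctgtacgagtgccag
Plin1: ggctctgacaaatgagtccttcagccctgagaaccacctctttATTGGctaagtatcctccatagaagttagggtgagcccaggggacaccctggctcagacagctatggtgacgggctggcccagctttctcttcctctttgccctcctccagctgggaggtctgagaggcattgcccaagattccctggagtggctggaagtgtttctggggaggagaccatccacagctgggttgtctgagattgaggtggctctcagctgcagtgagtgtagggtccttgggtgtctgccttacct
Cidec: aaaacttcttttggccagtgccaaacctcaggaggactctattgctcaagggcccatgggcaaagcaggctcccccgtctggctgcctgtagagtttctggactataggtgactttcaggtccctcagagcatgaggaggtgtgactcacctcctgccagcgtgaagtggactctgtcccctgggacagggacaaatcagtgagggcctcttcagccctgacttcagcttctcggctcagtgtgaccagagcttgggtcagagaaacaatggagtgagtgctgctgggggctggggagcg
Lep: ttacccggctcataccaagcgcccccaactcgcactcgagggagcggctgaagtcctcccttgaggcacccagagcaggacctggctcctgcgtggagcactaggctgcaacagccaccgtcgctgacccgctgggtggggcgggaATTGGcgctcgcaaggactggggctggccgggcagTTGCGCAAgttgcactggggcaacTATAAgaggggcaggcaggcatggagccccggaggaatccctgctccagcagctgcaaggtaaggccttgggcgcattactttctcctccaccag

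The adiponectin window held CCAAT letters on the opposite strand at -69 and on the gene's strand at -42, counted from the start site. The perilipin window held the CCAAT letters at -207 on the opposite strand. The leptin window held TATAA at -45, the C/EBP palindrome at -69 and the CCAAT letters at -104 on the opposite strand. None of these letters lay in the Cidec window, and no DR1 element or single repeat lay in any of the 4. Among 33365 windows of the same length, TATAA lay in 26.2%, CCAAT in 37.5%, the C/EBP palindrome in 0.171%, the exact DR1 in 0.0539% and its single repeat in 16.2%. A match is a run of letters and not a measured site of binding.

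Adipoq encodes adiponectin, the most abundant hormone of fat cells. It stood at 3.05, 94.8, 11.8 and 62.2 CPM in the IM of rats 1 to 4 and at 17.2, 158, 14.5 and 16.6 CPM in their PFNU. In PMMA bone it stood at 27.4, 3.51, 5.17 and 9.44 CPM, against 90.8, 43.5, 34.5 and 56.4 CPM in BNED. All 4 BNED libraries lay above all 4 PMMA bone libraries, whereas the ranges of IM and PFNU overlapped. A single PFNU library, that of rat 2, lay about an order of magnitude above the other 3, and the IM of rats 2 and 4 lay far above that of rats 1 and 3.

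Plin1 encodes the perilipin that coats the adipocyte's droplet and holds back its lipases. Its levels were 1.29, 6.14, 5.26 and 12.1 CPM in the IM of rats 1 to 4 and 5.8, 50.3, 3.47 and 3.71 CPM in PFNU. They were 13.5, 1.05, 1.7 and 3.76 CPM in PMMA bone, against 25.3, 18.3, 11.9 and 16 CPM in BNED. The bone groups overlapped in 1 library alone, the PMMA bone of rat 1, which lay above the lowest BNED library. Rat 2 again held the highest PFNU value.

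Cidec encodes a protein that fuses small droplets into large ones. It had 0.691, 18.8, 3.16 and 15.6 CPM in IM and 2.94, 33.8, 2.87 and 3.62 CPM in PFNU. In PMMA bone it had 6.4, 1.07, 0.859 and 3.1 CPM, against 22.4, 13.4, 7.4 and 13.8 CPM in BNED. The order of libraries was close to that of Adipoq, and the bone groups did not overlap.

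Lep encodes leptin, the satiety hormone of fat. It was the least covered member, with 5 to 498 counts per library. Its levels were 0.096, 3.25, 0.154 and 1.66 CPM in IM and 1.3, 9.7, 0.561 and 0.747 CPM in PFNU. They were 1.05, 0.204, 0.105 and 0.552 CPM in PMMA bone, against 3.98, 1.82, 0.809 and 2.34 CPM in BNED. The PMMA bone of rat 1 overlapped the BNED of rat 3.

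Fabp4 encodes a fatty acid carrier of adipocytes that capillary endothelium and macrophages also make. It had 199, 791, 203 and 433 CPM in IM and 435, 596, 583 and 371 CPM in PFNU. In PMMA bone it had 196, 126, 101 and 151 CPM, against 304, 230, 213 and 297 CPM in BNED. Every PMMA bone library lay below every library of the other 3 groups.

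Lpl encodes lipoprotein lipase, which frees fatty acids from circulating triglyceride and is made in muscle as well as fat. It had 275, 371, 234 and 254 CPM in IM and 459, 635, 779 and 484 CPM in PFNU. In PMMA bone it had 329, 178, 149 and 183 CPM, against 293, 339, 313 and 369 CPM in BNED. Every PFNU library lay above every library of the other 3 groups. The PMMA bone of rat 1 lay within the BNED range and the other 3 below it.

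Pparg, the transcription factor gene, varied less. It had 11.4, 34.3, 16.9 and 22.4 CPM in IM and 35.3, 30.7, 33.8 and 23.9 CPM in PFNU. It had 25.6, 11.2, 14.6 and 18.4 CPM in PMMA bone, against 31.1, 19.2, 28.4 and 37.3 CPM in BNED. Both pairs of ranges overlapped.

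Cfd encodes adipsin, complement factor D. It had 57.4, 434, 119 and 317 CPM in IM and 123, 188, 110 and 82.6 CPM in PFNU. It had 167, 104, 135 and 144 CPM in PMMA bone, against 209, 185, 159 and 159 CPM in BNED. As with Adipoq, the IM of rats 2 and 4 stood above that of rats 1 and 3.

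Lipe encodes hormone-sensitive lipase, which muscle also uses. It had 60.8, 27.7, 55.9 and 58.8 CPM in IM and 69.9, 87.1, 55.2 and 48.3 CPM in PFNU. It had 33.4, 48.6, 50.2 and 43.2 CPM in PMMA bone, against 47.5, 49.8, 34 and 30.8 CPM in BNED. Rat 2 gave the lowest IM value of Lipe, although its IM was the highest for Adipoq, Cidec and Lep.

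**Figure D1:**
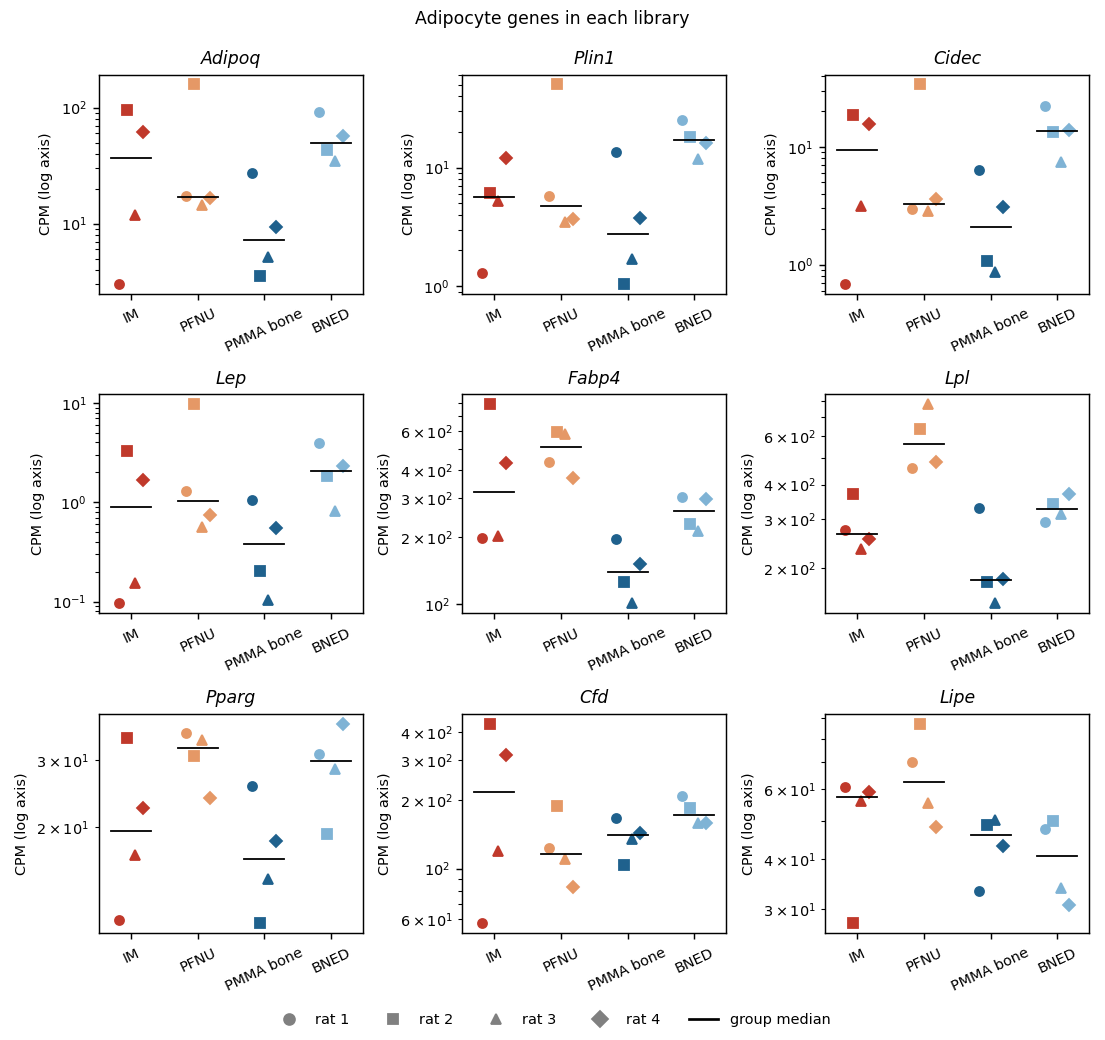
Levels of the 9 adipocyte genes in CPM (log axis) in IM, PFNU, PMMA bone and BNED, with 1 point per library, a marker shape for each rat and a black line at the group median. Adipoq, Plin1, Cidec and Lep have a single PFNU library (rat 2) far above the other 3, and PMMA bone libraries lie low for most of the genes, with rat 1 the highest of them for Adipoq (27.4 CPM).

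By group mean, PMMA bone was the lowest of the 4 groups for 7 of the 9 genes and PFNU the highest for 5. The exceptions at the low end were Cfd, lowest in PFNU, and Lipe, lowest in BNED. Adipoq averaged 43 ± 43.3 CPM in IM, 51.5 ± 70.9 CPM in PFNU, 11.4 ± 11 CPM in PMMA bone and 56.3 ± 24.7 CPM in BNED (SD, n = 4 each). Its order by mean, low to high, was PMMA bone, IM, PFNU and BNED, the same as for Plin1 and Cidec. The PFNU means of these genes include the high library of rat 2. By median IM lay above PFNU, at 37 against 16.9 CPM for Adipoq, 5.7 against 4.75 CPM for Plin1 and 9.36 against 3.28 CPM for Cidec. Lep was highest in PFNU by mean, but its median was 1.02 CPM there and 2.08 CPM in BNED. The Adipoq means of IM, PFNU and BNED lay closer together than their SDs. Fabp4 averaged 407 ± 278 CPM in IM, 496 ± 111 CPM in PFNU, 144 ± 40.3 CPM in PMMA bone and 261 ± 46.1 CPM in BNED. Lpl averaged 284 ± 60.7 CPM in IM, 589 ± 148 CPM in PFNU, 210 ± 80.8 CPM in PMMA bone and 328 ± 32.8 CPM in BNED. For Lpl the neighbours PMMA bone and IM, and IM and BNED, differed by less than the larger SD of each pair, though by more than the smaller one. PFNU stood apart.

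Between IM and PFNU, the comparison sets the membrane around a spacer against the tissue of an empty gap. No adipocyte gene passed the test (edgeR quasi-likelihood test, Benjamini-Hochberg adjusted p under 0.05 over all 12857 genes), where 0.863% of all genes did (111 genes, and 47 with rat as a block). Of the 9 genes, 8 had negative log2 fold changes (lower in IM) and 1 a positive one. An unadjusted p under 0.05 was reached by 1 of them, and by 1997 of all 12857 genes. With DESeq2 1 was called, Lpl (log2 fold change -1.06, adjusted p = 0.00416), beside 4.45% of all genes, and with limma-voom 0, beside 0 of all genes. Their median was -0.36 against 0.01 over all genes. Lpl came nearest (log2 fold change -1.05, SE 0.26, adjusted p = 0.067). It was lower in IM in 4 of 4 rats, and its groups did not overlap, which in this direction held for 3.31% of all genes.

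The direction of the genes most restricted to adipocytes turned when single libraries were left out. Log2 fold changes were -0.26 for Adipoq (SE 0.95, edgeR adjusted p = 0.938), -0.18 for Cidec (SE 0.96, adjusted p = 0.96), -1.35 for Plin1 (SE 0.92, adjusted p = 0.523) and -1.25 for Lep (SE 1.07, adjusted p = 0.638). Without the PFNU library of rat 2 these 4 values were 1.42, 1.6, 0.52 and 0.57. Adipoq and Cidec were also positive without the IM of rat 1 (0.18 and 0.25) and without the IM of rat 3 (0.051 and 0.11), and Cidec with rat as a block (0.085). Cfd, the one positive gene, had a log2 ratio of 0.88 (SE 0.45, adjusted p = 0.366). Beside these values, muscle markers reached 16.8% of the counts in the PFNU of rat 2, within the PFNU range, and their part in the result was not tested.

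PMMA bone and BNED were set against each other to ask whether neighbouring bone differs with a spacer. Adipocyte genes were mostly at lower levels beside the spacer, but none passed the test over all genes, where 4.91% of all genes did and 1.4% were called lower. Of the 9 genes 8 had negative log2 fold changes and 7 were lower in PMMA bone in 4 of 4 rats. The share of all genes lower in 4 of 4 rats was not computed. In 3 genes (Adipoq, Cidec and Fabp4) all PMMA bone libraries lay below all BNED libraries, as did 7.05% of all genes. The median was -0.86 against -0.01 over all genes. An unadjusted p under 0.05 was reached by 5 of the 9 genes, and by 3130 of all 12857 genes.

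The largest of these differences were in the adipocyte-restricted genes. Cidec had a log2 fold change of -2.33 (SE 1.01, edgeR adjusted p = 0.174), Adipoq -2.31 (SE 1.00, adjusted p = 0.175), Lep -2.24 (SE 1.12, adjusted p = 0.232) and Plin1 -1.85 (SE 0.93, adjusted p = 0.238). Fabp4 had -0.86 (SE 0.38, adjusted p = 0.177), Pparg -0.73 (SE 0.32, adjusted p = 0.173) and Lpl -0.65 (SE 0.25, adjusted p = 0.141). Cfd, at -0.37 (SE 0.45, adjusted p = 0.638), and Lipe, at 0.11 (SE 0.26, adjusted p = 0.82), differed by less than their errors. The calls differed between fits, as did the share of all genes called. A fit of the 8 bone libraries alone called Adipoq (adjusted p = 0.0419), Cidec (0.044) and Fabp4 (0.0331), where it called 14.1% of all genes. DESeq2 called 0 members beside 12% of all genes, and limma-voom with quality weights called 7 members lower beside 48.6%. Without the PMMA bone of rat 1, where edgeR called 19.9% of all genes, it called Plin1 (-3.04, adjusted p = 0.0436), Lpl (-0.95, adjusted p = 0.0098) and Pparg (-0.98, adjusted p = 0.0492).

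Markers of other cells differed in both directions. Over all genes edgeR called 3.51% higher and 1.4% lower in PMMA bone against BNED. All 12 erythroid markers had negative log2 fold changes in PMMA bone against BNED, with a median of -1.12, and edgeR called 0, with 0 at an unadjusted p under 0.05. The erythroid share was 8.41, 0.535, 0.593 and 1.44% in the PMMA bone of rats 1 to 4, against 7.64, 5.37, 4.47 and 7.8% in BNED. The PMMA bone library with the highest erythroid share, that of rat 1, also had the highest Adipoq, Plin1, Cidec, Lep, Fabp4, Lpl, Pparg and Cfd of the 4. All 9 B cell and all 20 muscle markers also had negative values, and 4 and 2 of them fell. In the opposite direction, all 13 endothelial markers had positive values and 5 rose (Flt1, Erg, Vwf, Plvap and Esam), and all 10 fibroblast markers had positive values and 3 rose (Col3a1, Postn and Thbs2). None of these marker calls was made without the PMMA bone of rat 2, 3 or 4 or the BNED of rat 1 or 3, where edgeR called 0 genes in all (2019 to 2654 at an unadjusted p under 0.05). Their part in the adipocyte values was not tested.

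**Figure D2:**
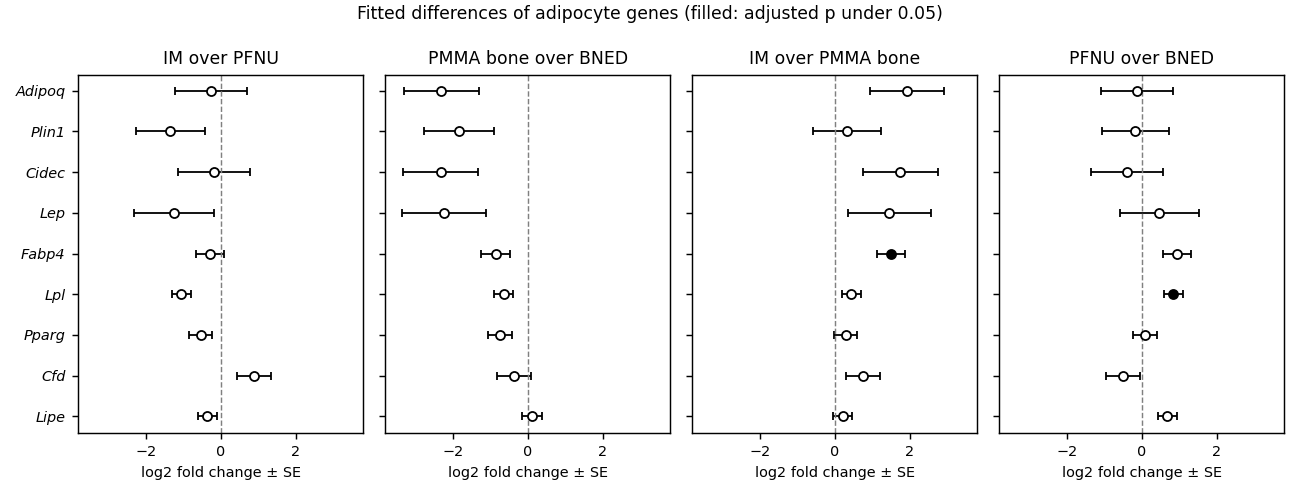
Log2 fold changes of the 9 adipocyte genes with their standard errors in each comparison of 2 groups, the first-named group over the second, with filled points for an edgeR adjusted p under 0.05. Only Fabp4 in IM against PMMA bone (1.5) and Lpl in PFNU against BNED (0.84) are filled.

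The effect of the spacer was set side by side in the 2 tissues with an interaction term, the difference in the defect tissue (IM against PFNU) minus the difference in bone (PMMA bone against BNED). No adipocyte gene was called and none had an unadjusted p under 0.05. Over the whole table edgeR called 0%, with 1149 genes at an unadjusted p under 0.05, and DESeq2 and limma-voom called 136 and 218, no member among them. The median over the 9 genes was 0.57 against 0.01 over all genes. Adipoq had an interaction of 2.05 (SE 1.37, edgeR adjusted p = 0.7) and Cidec 2.15 (SE 1.37, adjusted p = 0.685), the largest of the 9. No difference between the 2 tissues in the effect of the spacer on these genes was detectable above the spread between rats.

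IM was compared with the PMMA bone of the same limb to describe tissue against bone. Fabp4 rose in IM, by 1.5 on the log2 scale (SE 0.38, edgeR adjusted p = 0.0133), in 4 of 4 rats and with no overlap of the groups, as 7.75% of all genes were higher without overlap. In rat 1 the levels were nearly equal, at 199 CPM in IM and 196 CPM in PMMA bone (log2 difference 0.0246). The absence of overlap rested on that same gap. Fabp4 was the 1 member called, where 22.2% of all genes were called and 11.3% were called higher. All 9 genes had positive fitted log2 fold changes, with a median of 0.75 against 0.03 over all genes. Rat 1 went the other way for most of them. Its log2 differences were -3.15 for Adipoq, -3.35 for Plin1, -3.15 for Cidec and -3.04 for Lep. They were -1.55 for Cfd, -1.17 for Pparg and -0.258 for Lpl, against 0.864 for Lipe. Fabp4 was the 1 member higher in IM in 4 of 4 rats. With 1 library left out the median ranged from 0.42 to 1.51. Plin1 was negative without the IM of rat 4 (-0.19) or the PMMA bone of rat 2 (-0.018), and Pparg without the IM of rat 2 (-0.047). The others had adjusted p of 0.172 for Adipoq (log2 fold change 1.92, SE 0.99) to 0.827 for Plin1 (0.32, SE 0.91). The Fabp4 call held whichever library was left out, with a log2 fold change of 0.96 and an adjusted p of 0.0354 without the IM of rat 2, and was lost when the 8 libraries were fitted alone (adjusted p = 0.0764). Cfd was called as well without the IM of rat 1 (1.11, adjusted p = 0.0333), beside 31.2% of all genes, and Lpl without the PMMA bone of rat 1 (0.74, adjusted p = 0.0411), beside 14.2%.

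PFNU was compared with the BNED of the same limb; the libraries of each group also enter the comparisons of spacer with empty defect, so these values are not independent of those above. Lpl rose in PFNU, by 0.84 on the log2 scale (SE 0.25, edgeR adjusted p = 0.0221), in 4 of 4 rats. Its groups did not overlap, nor did those of Fabp4, both higher in PFNU as were 18.9% of all genes, and no member was lower without overlap, as were 21%. Lpl was the 1 member called, where 30.2% of all genes were called and 15% were called higher. The call was lost without the PFNU of rat 2 (adjusted p = 0.0542) or rat 3 (0.0628) or the BNED of rat 1 (0.0639) or rat 3 (0.0583). Fabp4 had a log2 ratio of 0.93 (SE 0.38, adjusted p = 0.0726) and Lipe 0.68 (SE 0.26, adjusted p = 0.0568). Lipe was called without the PFNU of rat 4 (0.8, adjusted p = 0.0473) or the BNED of rat 2 (0.8, adjusted p = 0.0458), beside 22.1% and 30.8% of all genes. Members called numbered 3 with DESeq2 and 3 with limma-voom, beside 37% and 52.3% of all genes, 2 with the 8 libraries fitted alone, beside 43.7%, and 2 with library sizes that left out muscle, erythroid and Rn45s counts, beside 30.3%. Adipoq, Plin1, Cidec, Lep, Pparg and Cfd lay between -0.50 and 0.46, each with an adjusted p of at least 0.418. The median over the 9 was 0.09 against 0.04 over all genes. The values of Adipoq, Plin1, Cidec and Lep moved most without the PFNU of rat 2. There the log2 fold changes were -1.81 for Adipoq, -2.05 for Plin1, -2.18 for Cidec and -1.36 for Lep, none called (lowest adjusted p 0.0827, for Plin1), and the median was -0.76.

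The 2 members that passed a test of tissue against bone are both used outside adipocytes. Markers of other cells moved beside them. Over all genes 11.3% were called higher and 11% lower in IM against PMMA bone, and 15% and 15.2% in PFNU against BNED. Of 20 muscle markers 13 rose and 4 fell in IM against PMMA bone, and 12 rose in PFNU against BNED. All 12 erythroid markers fell in both. Of 13 endothelial markers 5 rose in IM against PMMA bone and 12 in PFNU against BNED, with summed levels of 1520 to 2020 CPM in IM, 1420 to 1830 CPM in PFNU, 773 to 1450 CPM in PMMA bone and 642 to 779 CPM in BNED. Of 10 macrophage markers 5 rose in IM against PMMA bone. In PFNU against BNED edgeR called 0 of them, and 3 had an unadjusted p under 0.05, as did 5519 of all 12857 genes. The part of muscle, vessels or macrophages in the Fabp4 and Lpl values was not tested.

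A further 9 lists of adipocyte function (118 genes, of which 104 were in the table and 101 were tested) covered droplet proteins, triglyceride breakdown, fatty acid uptake, fat synthesis, regulators of adipocyte formation, secreted products and their receptors, insulin response, brown fat and stromal progenitors. In IM against PFNU 1 of 101 was called, which is 0.99% beside 0.863% of all genes. Klf2, a Krüppel-like factor that holds back adipocyte formation in cultured cells, rose by 0.96 (SE 0.21, edgeR adjusted p = 0.0478), with 41.1, 36.3, 28.3 and 28.4 CPM in IM and 19, 15.3, 16.9 and 17.7 CPM in PFNU. The groups did not overlap, where 3.96% of all genes were higher without overlap. The call was lost without the IM of rat 1 or 2 or without any 1 of the 4 PFNU libraries. The adjusted p reached 0.164 there. With rat as a block (0.0992) and with the 8 libraries fitted alone (0.191) the call was lost as well. It was also lost with RLE size factors, with library sizes that left out muscle, erythroid and Rn45s counts, with limma-voom and with either other filter on low counts. The median over the 101 genes was -0.12.

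In PMMA bone against BNED 4 of the 101 genes were called, 2 higher and 2 lower, which is 3.96% beside 4.91% of all genes. Col15a1, a basement membrane collagen of stromal cells, rose by 1.61 (SE 0.33, edgeR adjusted p = 0.023). Dpp4, a peptidase on adipose progenitors, fell by 1.79 (SE 0.44, adjusted p = 0.0357), with 49.7, 23.2, 20.6 and 36.6 CPM in PMMA bone, against 149, 79.3, 97.7 and 122 CPM in BNED. Ebf1, a factor shared by adipocyte and B cell formation and itself among the B cell markers, fell by 0.71 (SE 0.19, adjusted p = 0.0476). None of these 3 genes was called without the PMMA bone of rat 2, 3 or 4 or the BNED of rat 1 or 3, where edgeR called 0 genes in the whole table (2019 to 2654 at an unadjusted p under 0.05). Their highest adjusted p in these fits were 0.108, 0.13 and 0.171. Ebf1 was also lost without the BNED of rat 2 (0.0751) or rat 4 (0.0791), and Dpp4 without the BNED of rat 4 (0.0619). With rat as a block Dpp4 (adjusted p = 0.0535) and Ebf1 (0.059) were not called.

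Tissue and bone differed in more of these genes. In IM against PMMA bone 25 of 101 were called, 19 higher and 6 lower (24.8% beside 22.2% of all genes), and in PFNU against BNED 30, of which 19 were higher and 11 lower (29.7% beside 30.2%). Both shares were near those of all genes. The leptin receptor Lepr, which marks marrow stromal cells in mice, fell by 3.11 in IM against PMMA bone (SE 0.51, edgeR adjusted p = 0.0015) and fell by 2.46 in PFNU against BNED (SE 0.50, adjusted p = 0.00238). It had 2.76, 7.11, 11.5 and 6.57 CPM in IM and 120, 31, 40.5 and 50.3 CPM in PMMA bone. It had 7.4, 14.8, 21.6 and 31.7 CPM in PFNU and 95.2, 83.8, 123 and 112 CPM in BNED. Neither pair of groups overlapped, where 11.7% of all genes were lower without overlap in IM against PMMA bone and 21% in PFNU against BNED.

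Other stromal genes of marrow and fat also differed. Cxcl12, the chemokine of marrow stroma, fell by 1.76 in PFNU against BNED (SE 0.34, edgeR adjusted p = 0.00183) and Dpp4 fell by 2.05 (SE 0.45, adjusted p = 0.00364). Mme, a peptidase of stromal cells, fell by 2.18 in IM against PMMA bone (SE 0.50, adjusted p = 0.00819), whereas Pi16, which marks adventitial fibroblasts, rose by 1.68 (SE 0.29, adjusted p = 0.0018). Among regulators, Ebf2 of brown fat precursors rose by 1.87 in IM (SE 0.35, adjusted p = 0.00324) and by 2.61 in PFNU (SE 0.37, adjusted p = 0.00026). Gata2, which restrains adipocyte formation in cells and is used by blood progenitors, fell by 1.56 in IM (SE 0.29, adjusted p = 0.00294) and fell by 1.18 in PFNU (SE 0.29, adjusted p = 0.00729). Rxra, the partner of the receptor made from Pparg, rose by 1.41 in IM (SE 0.36, adjusted p = 0.0135) and by 1.32 in PFNU (SE 0.36, adjusted p = 0.0131).

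Genes of lipid handling moved both ways. Adrb3, the adrenergic receptor that starts lipolysis in rodent fat, fell by 2.91 in IM against PMMA bone (SE 0.67, edgeR adjusted p = 0.00822) and fell by 2.32 in PFNU against BNED (SE 0.65, adjusted p = 0.0151). Its CPM were 0.96, 0.167, 1.39 and 0.434 in IM and 6.73, 4.84, 5.73 and 4.87 in PMMA bone. They were 0.151, 1.97, 2.82 and 1.68 in PFNU and 6.47, 5.69, 10.4 and 10.6 in BNED. Neither pair of groups overlapped, as for the 11.7% and 21% of all genes that were lower without overlap in these comparisons. Cav1, the caveolin of adipocytes and endothelium, rose by 1.49 in IM (SE 0.29, adjusted p = 0.00371) and by 2.13 in PFNU (SE 0.29, adjusted p = 0.000246). The lipoprotein receptor Vldlr rose by 0.74 in IM (SE 0.19, adjusted p = 0.0144) and by 1.09 in PFNU (SE 0.19, adjusted p = 0.00101). The droplet coat gene Plin2, present in most cells, rose by 0.83 in PFNU (SE 0.23, adjusted p = 0.0141), and Acly, which supplies acetyl-CoA for fat synthesis, fell by 0.81 in PFNU (SE 0.15, adjusted p = 0.00112).

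Several of the largest increases in tissue were of genes that muscle also uses. Gpd1, which makes glycerol phosphate, rose by 4.94 in IM (SE 0.90, edgeR adjusted p = 0.00254), with 77.1 to 1590 CPM in IM and 13.6 to 43.3 CPM in PMMA bone. Pfkfb1, a regulator of glycolysis, rose by 3.18 in IM (SE 0.66, adjusted p = 0.00499) and the insulin-responsive glucose transporter gene Slc2a4 by 2.81 (SE 0.82, adjusted p = 0.0247). Muscle markers summed to 25000 to 353000 CPM in IM and 2080 to 12700 CPM in PMMA bone, and their part in these values was not tested. Of 18 called genes named in IM against PMMA bone, 13 held whichever library was left out. The calls of Slc2a4, Fitm1, Cox8b, Cdh13 and Srebf1 were lost without the IM of rat 4, with adjusted p of 0.0992, 0.061, 0.149, 0.0675 and 0.122. Of 20 named in PFNU against BNED, 12 held. Those of Gpd1 (0.0968), Mgll (0.0905), Me1 (0.0557) and Cox8b (0.0916) were lost without the BNED of rat 3, among other libraries. Fasn (0.0772) was lost without the BNED of rat 1, Rarres2 (0.0623) without the PFNU of rat 1, and Pfkfb1 (0.106) and Sort1 (0.098) without the PFNU of rat 2. With rat as a block Gpd1 (0.0607), Mgll (0.0517), Pfkfb1 (0.0751) and Sort1 (0.0542) were not called in that comparison. With the 8 libraries fitted alone Vldlr (0.0639), Rxra (0.0764), Slc2a4 (0.0568), Me1 (0.054), Srebf1 (0.0822), Rarres2 (0.0729), Cdh13 (0.0556) and Cox8b (0.0611) were not called in IM against PMMA bone.

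A panel of well-known adipocyte genes outside the 9 had 7 that were tested. Of these edgeR called 2 in IM against PMMA bone (Lepr lower and Slc2a4 higher) and 2 in PFNU against BNED (Lepr and Fasn, both lower), beside the 22.2% and 30.2% of all genes. In IM against PFNU it called 0, with 1 at an unadjusted p under 0.05, beside 1997 of all 12857 genes. There DESeq2 called 1 (Lepr) and limma-voom 0. In PMMA bone against BNED edgeR called 0, with 1 at an unadjusted p under 0.05, beside 3130 of all 12857 genes. There DESeq2 called 0 and limma-voom 5, beside its 48.6% of all genes. Cd36, the fatty acid transporter, had log2 fold changes of -0.76 in IM against PFNU (SE 0.41, edgeR adjusted p = 0.407) and -0.68 in PMMA bone against BNED (SE 0.41, adjusted p = 0.328). In PMMA bone against BNED Cd36 was called without the PMMA bone of rat 1 (-1.31, adjusted p = 0.0173) and by limma-voom (-1.21, adjusted p = 0.000981). Cebpa, the partner of Pparg in adipocyte formation, had 0.47 (SE 0.30, adjusted p = 0.485) and -0.26 (SE 0.30, adjusted p = 0.608) in IM against PFNU and in PMMA bone against BNED. Fasn, the fatty acid synthase, fell by 1.26 in PFNU against BNED (SE 0.36, adjusted p = 0.0165). Scd, a stearoyl-CoA desaturase, passed no edgeR test, with -0.19 in IM against PFNU and 0.45 in PMMA bone against BNED. A second desaturase gene, Scd1, differed from Scd. It had -1.66 in IM against PFNU (SE 0.62, edgeR adjusted p = 0.211) and -2.18 in PMMA bone against BNED (SE 0.63, adjusted p = 0.0583). Retn, which encodes resistin of rodent fat, had a log2 fold change of -2.33 in PMMA bone against BNED (SE 1.08, adjusted p = 0.2), close to Adipoq and Cidec. Ucp1, the defining gene of brown fat, lay at 0 to 0.0301 CPM in every library and was not tested.

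The 4 adipocyte-restricted genes varied far more between rats of a group than most genes did. The within-group SD on the log2 scale was 1.57 for Adipoq, 1.4 for Plin1, 1.58 for Cidec and 1.67 for Lep, against a median of 0.411 over all tested genes, which placed them at percentiles 97.5 to 99.4. It was 0.732 for Cfd, 0.56 for Fabp4, 0.483 for Pparg, 0.395 for Lipe and 0.345 for Lpl, at percentiles 39.4 to 79.5. From the lowest to the highest of the 16 libraries Adipoq spanned 51.7-fold, Cidec 49-fold, Plin1 47.8-fold and Lep 101-fold. Lpl spanned 5.23-fold, Pparg 3.35-fold and Lipe 3.15-fold.

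Within groups the restricted genes went up and down together. After group means were removed, Pearson's r over the 16 libraries, which come from 4 rats, was 0.985 between Adipoq and Cidec (Spearman 0.909), 0.951 between Adipoq and Lep (0.912) and 0.897 between Adipoq and Plin1 (0.909). All were computed on log2 CPM with a prior count of 2. Cfd followed Adipoq at 0.903 and Fabp4 at 0.813. Pparg had 0.727 and Lpl 0.451. Lipe, the lipase, did not follow, at -0.221. These values describe the libraries and carry no test.

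**Figure D3:**
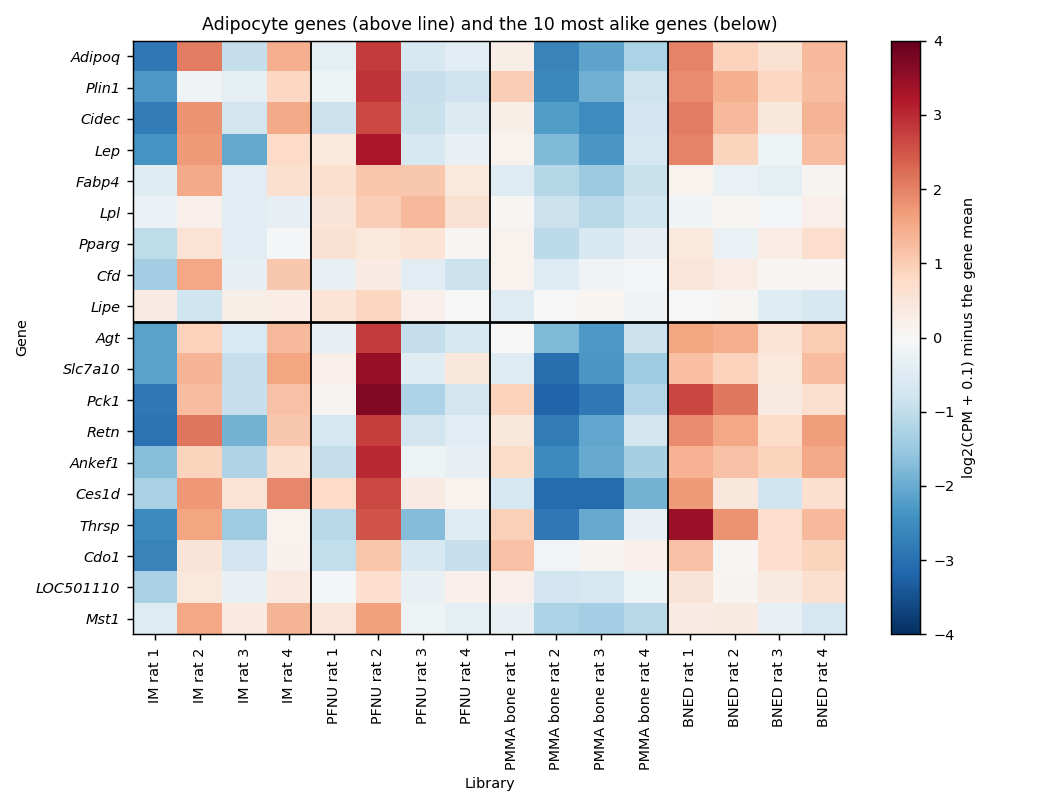
Level of each of the 9 adipocyte genes (above the line) and of the 10 genes most like them (below it) in each of the 16 libraries, as log2(CPM + 0.1) minus that gene's mean over all libraries, with libraries ordered IM, PFNU, PMMA bone and BNED and rats 1 to 4 within each. Adipoq, Cidec, Lep and Plin1 share most of their high libraries (PFNU of rat 2, BNED) and their low ones (IM of rat 1, PMMA bone of rats 2 and 3). An exception is Lep in the BNED of rat 3, at 0.809 CPM. Lipe has another pattern.

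The 10 genes outside the members most like the mean of the standardised log2 levels of Adipoq, Plin1 and Cidec were Agt (r = 0.977 over the 16 libraries, group means removed), Slc7a10 (0.976), Pck1 (0.972), Retn (0.96), Ankef1 (0.942), Ces1d (0.942), Thrsp (0.94), Cdo1 (0.927), LOC501110 (0.912) and Mst1 (0.908). Agt encodes angiotensinogen, Slc7a10 an amino acid transporter, Pck1 the enzyme that feeds glycerol synthesis in fat, and Thrsp a nuclear protein of fat synthesis. Of the 10, Agt, Pck1, Retn, Ces1d and Thrsp stood in the lists of adipocyte function. Agt had 1.42, 12.8, 4.31 and 16.6 CPM in IM and 5.32, 46.7, 3.36 and 4.08 CPM in PFNU. It had 6.75, 1.87, 1.28 and 3.65 CPM in PMMA bone, against 19.9, 18.5, 9.99 and 13.6 CPM in BNED. Its highest library was the PFNU of rat 2, as for Adipoq. Agt was chosen for its likeness to Adipoq, Plin1 and Cidec, so the shared peak is not a separate result. Markers of other cells were also related to the same pattern. The median r was 0.689 over 12 erythroid markers, 0.422 over 9 B cell markers, 0.201 over 20 muscle markers, -0.07 over 10 macrophage markers and -0.615 over 10 fibrous matrix markers, beside 0.00737 over all genes. The libraries share depth and tissue makeup, and the part of each was not tested.

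Ratios of counts within a library show where members parted from each other. They are not per length and so describe libraries, not relative abundance. Adipoq per Cidec stayed within 3.05 to 6.02 over the 16 libraries, with a median of 4.36. Adipoq per Plin1 had a median of 3.09. It was 15.4 in the IM of rat 2 and 5.13 in the IM of rat 4, and 2.04 to 4.47 in every other library. The membrane of rat 2 thus held the highest Adipoq and Cidec of the 4 membranes beside a Plin1 near their mean of 6.21 CPM. Fabp4 per Adipoq lay at 3.35 to 6.17 in BNED and reached 65.4 in the IM of rat 1, where Adipoq was lowest. The counts per Adipoq of Fabp4 and Lpl spanned 19.5-fold and 27.9-fold over the libraries, against 1.97-fold for Adipoq per Cidec.

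**Figure D4:**
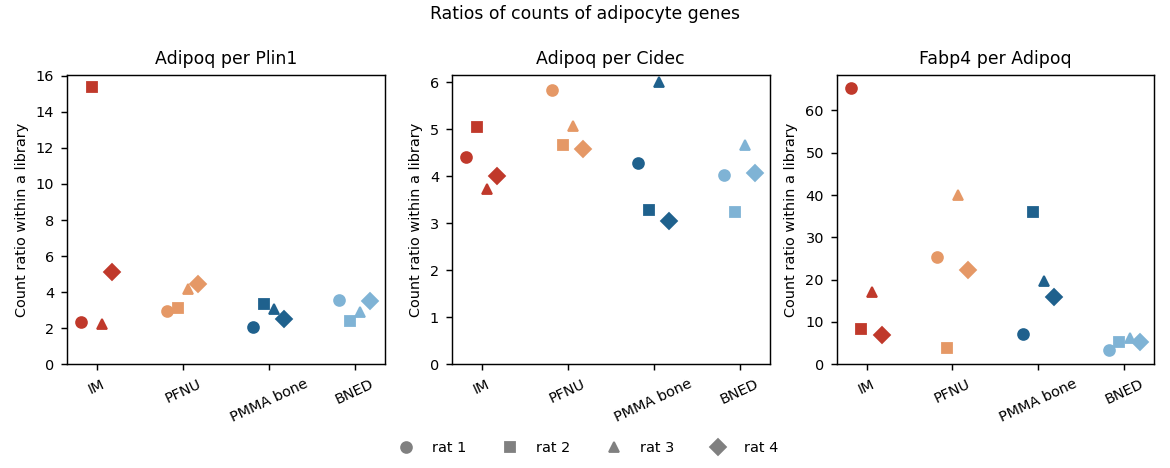
Count ratios between adipocyte genes within each library (linear axis from 0), with 1 point per library, a marker shape for each rat and groups ordered IM, PFNU, PMMA bone and BNED. Adipoq per Plin1 stands out in the IM of rat 2 (15.4), and Fabp4 per Adipoq in the IM of rat 1 (65.4).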

How the data were processed

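RNA was measured by sequencing in 16 libraries, 1 per rat in each of 4 groups. Per the labels' protocols, total RNA was treated with DNase and made into stranded poly-A libraries with 12 cycles of PCR, with paired reads of 100 cycles. Tools listed in the submitters' processing notes are TopHat2 2.0.13, Bowtie2 2.2.1, FastQC 0.11.3 and DESeq2, and the build is rn5. The counting program, annotation and strand setting are not given in the sources used here, so overlapping and antisense genes cannot be told apart. The authors deposited whole-number counts per gene symbol, without normalisation.

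Groups and rats were taken from each library's own label. Counts were fitted with edgeR 4.0.16 (R 4.3.3; TMM, filterByExpr with a minimum count of 10, quasi-likelihood F-test) as group means over all 16 libraries, with Benjamini-Hochberg adjustment over 12857 genes in each comparison and a call at an adjusted p under 0.05. Standard errors are the log2 fold change divided by the square root of F. DESeq2 1.42.0 and limma 3.58.1 (voom with quality weights), RLE size factors, other filters, library sizes without muscle, erythroid and Rn45s counts, a fit of the compared groups alone, a rat block and the omission of each library were the alternatives. The code was tested on simulated data.

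Depth was 40472228 to 76815879 counts per library. No 2 libraries of a group agreed within sampling noise (lowest chi-square per degree of freedom 75.6), so all were kept. Reads had no molecular identifiers, so depth speaks for counting error alone and precision rests on the differences between rats. The labels give the same rat number to libraries of 1 animal, so libraries are paired by rat. Deviations from group means of same-numbered libraries correlated at -0.285 to 0.496 over genes.

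The members and lists were chosen with earlier results of these data known. All members are named, with up to 3 called genes per list and comparison having the largest change and at least 1 CPM, the 10 genes most like the adipocyte pattern, and a panel (Cebpa, Pnpla2, Cd36, Slc2a4, Fasn, Scd, Retn, Lepr and Ucp1), of which Pnpla2 was not analysed here. Scd1, from the list of fat synthesis, is named beside Scd. Lists are described by counts and medians, with no test. One called gene of the lists is not reported by name here. Symbols are as the table gives them, and the RefSeq promoter coordinates are of GRCr8, not of rn5.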

Additional observations from a re-analysis of the deposited data

Results flagged for a closer look

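In 5 of 36 combinations of gene and group, 1 of the 4 libraries lay far from the other 3. Its gap to the nearest one, as a share of the whole range, was above Dixon's critical value. For normally distributed values, chance alone gives this in about 1 in 20 groups. The ratio was taken on CPM, which need not be normal, and not on the log2 scale, so that rate may not hold here. Of the 5, 4 were the PFNU library of rat 2, the highest for the adipocyte-restricted genes. It held 158 CPM of Adipoq (14.5 to 17.2 CPM in the other 3), 50.3 CPM of Plin1 (3.47 to 5.8), 33.8 CPM of Cidec (2.87 to 3.62) and 9.7 CPM of Lep (0.561 to 1.3). These genes are not independent of each other, since their levels followed each other over the libraries. The other was the IM of rat 2, the lowest for Lipe at 27.7 CPM, against 55.9 to 60.8 CPM in the other 3.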

How the results depend on the processing

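Of 9 members, a fit of the 8 compared libraries alone (the interaction uses all 16) gave 3 calls in PMMA bone against BNED, 0 in IM against PMMA bone and 2 in PFNU against BNED. DESeq2 gave 1 in IM against PFNU and 3 in PFNU against BNED, limma-voom 7 and 3 in the bone comparison and in PFNU against BNED, and library sizes without muscle, erythroid and Rn45s counts 2 in the last. Leaving out 1 library at a time gave 0 to 0 in IM against PFNU, 0 to 3 in PMMA bone against BNED, 0 to 0 in the interaction, 1 to 2 in IM against PMMA bone and 0 to 2 in PFNU against BNED. Members' medians ranged over -0.87 to 0.52, -1.05 to -0.73, 0.028 to 1.51, 0.42 to 1.51 and -0.76 to 0.24 in that order. Of the list genes, 0 were called in IM against PFNU with RLE, trimmed library sizes, limma-voom, no filter, a mean CPM of at least 1, the 8 libraries alone or the rat block, and 7 with DESeq2 (0 to 6 with 1 library left out, 6 without the IM of rat 4). In PMMA bone against BNED the count was 12 with DESeq2, 55 with limma-voom, 15 with the 8 libraries alone and 0 to 19 with omissions (19 without the PMMA bone of rat 1). In the interaction it was 2, 3 and 0 to 3 (3 without the PMMA bone of rat 1). In IM against PMMA bone it was 12 with the 8 libraries alone and 17 to 33, and in PFNU against BNED 63 with limma-voom and 18 to 33 (18 and 19 without the BNED of rats 3 and 1).

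With the replicate block for rat, Cidec in IM against PFNU was at 0.085 and Lep in PFNU against BNED at -0.23, opposite in sign to the unblocked fit and far from the threshold. The block changed no member's call, and over all genes it called 47, 454, 0, 2774 and 3734 in the 5 comparisons.

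Some directions turned with 1 library left out. In IM against PFNU the ranges were -1.003 to 1.42 for Adipoq, -1.86 to 0.52 for Plin1, -0.74 to 1.6 for Cidec, -2.27 to 0.57 for Lep, -0.17 to 0.34 for Fasn, -1.43 to 1.43 for Retn, -0.46 to 0.019 for Scd and -1.06 to 0.092 for Slc2a4. In PFNU against BNED they were -1.81 to 0.20 for Adipoq, -2.05 to 0.16 for Plin1, -1.36 to 0.89 for Lep and -0.064 to 0.24 for Pparg. In the interaction they were -0.029 to 2.81 for Lep and -0.14 to 0.47 for Pparg, in IM against PMMA bone -0.19 to 1.51 for Plin1 and -0.047 to 0.53 for Pparg, and in PMMA bone against BNED -0.502 to 0.11 for Fasn. The causes were not tested.

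Over all genes the calls in IM against PFNU numbered 111, with 572 by DESeq2 and 0 by limma-voom (1558 at an unadjusted p under 0.05) or the 8 libraries alone (1323). In PMMA bone against BNED they numbered 631, with 1546, 6244 and 1767, and 2578 without the PMMA bone of rat 1. In IM against PMMA bone they numbered 2860, with 3721, 2779 and 908, and in PFNU against BNED 3884, with 4751, 6720 and 5443, so the members' counts under these settings stand beside larger or smaller shares of all genes. With 4 rats a group, the standard error of Adipoq in each comparison of 2 groups was near a log2 fold change of 1. Of the 10 genes most like the adipocyte pattern, 9 and 7 were also among the 10 found under the 2 other definitions of it.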
